A study of Caenorhabditis elegans with 5 samples.

Results

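Sites called for LIN-42 along chromosome V of Caenorhabditis elegans were examined in 3 peak lists from chromatin immunoprecipitation followed by sequencing (ChIP-seq). A peak belonged to the set when it lay on chromosome V of the ce10 genome build, started above position 500000 and ended below position 20424149. This gave 867 peaks of the 4654 in the 3 lists. They were 181 of 946 peaks of LIN-42::GFP replicate 1, 482 of 2580 of LIN-42::GFP replicate 2 and 204 of 1128 of endogenous LIN-42. A further 37 chromosome V peaks fell outside these bounds, near the chromosome ends, and were left out. The arms were taken as the outer 30% of the chromosome on each side, without the 500 kb at each end, and the center as the middle 40%. The arms so defined span 11.6 Mb and the center spans 8.37 Mb.

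All ChIP libraries came from whole-animal extracts of one strain, HML214, which carries a GFP-tagged LIN-42 and whose full genotype is not given in the sources used here, grown at 20°C on OP50 bacteria and collected as L4 larvae. The 2 LIN-42::GFP samples were immunoprecipitated with an anti-GFP antibody from separate extracts, and the single endogenous LIN-42 sample with a rabbit antibody to a LIN-42 peptide. The LIN-42 antibody was thus used on animals that carry the tagged protein too. The 2 input DNA samples are from the same strain and were not analysed here. A whole-animal extract mixes all tissues, and no value here belongs to one cell type.

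LIN-42 is the nematode homolog of the circadian protein PERIOD and belongs to the heterochronic genes, which set the order and timing of developmental events in the larva. The lin-42 transcript oscillates with the molts. Worm chromosomes are holocentric and are described by arms and a center. The center of an autosome is rich in conserved and essential genes and recombines little, whereas the arms recombine often and hold more repeats and more members of fast-evolving gene families. Chromosome V is known for its large clusters of chemoreceptor genes (the sr families of seven-transmembrane receptors), and it also carries the tandem array of 5S ribosomal RNA genes, in which each unit holds a gene for the SL1 spliced leader RNA.

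Tags are the sequenced reads that the peak caller MACS placed inside a peak, after it had removed duplicate reads. The libraries were shallow after this step, with 38236 tags kept of 833169 in LIN-42::GFP replicate 1 (4.59%), 43991 of 4334100 in replicate 2 (1.01%) and 122089 of 2268716 in endogenous LIN-42 (5.38%). The weakest peaks rest on 4 tags in each LIN-42::GFP list and on 5 tags in the endogenous list. Peaks of one list no more than 2000 bp apart were counted once, as a locus, in every density and overlap test. Each list is 1 library, so the intervals and p-values cover counting error only and say nothing of the spread between animals. Benjamini-Hochberg adjustment ran over the 11 tests of arms against center as 1 family.

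LIN-42 loci lay more densely on the arms of chromosome V than in its center in 2 of the 3 lists. LIN-42::GFP replicate 1 had 9.95 loci per Mb on the arms (95% interval 8.22 to 11.9) and 4.06 per Mb in the center (2.81 to 5.68). The ratio of the 2 densities was 2.45 (1.66 to 3.71), from 115 arm loci and 34 center loci (exact conditional binomial test, two-sided, adjusted p = 1.23e-05). Endogenous LIN-42 had 127 loci on the arms, 11.0 per Mb (9.16 to 13.1), and 56 in the center, 6.69 per Mb (5.05 to 8.69). Its ratio was 1.64 (1.19 to 2.29, exact test, adjusted p = 0.00595).

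In LIN-42::GFP replicate 2 the densities were closer, at 22.2 loci per Mb on the arms (19.6 to 25.1) and 18.4 per Mb in the center (15.6 to 21.5). The ratio of 1.21 (0.99 to 1.49), from 257 and 154 loci, did not pass the threshold (exact test, adjusted p = 0.0887). Counted as single peaks, 313 on the arms and 169 in the center, the ratio of this list was 1.34 (1.11 to 1.63) and passed (exact test, adjusted p = 0.00542). Closely spaced peaks are not independent, however, and 48 of these arm peaks and 9 of the center peaks lay in runs of 4 or more. Without the runs the ratio of loci was 1.18 (0.96 to 1.45), from 249 and 153 loci, and did not pass (exact test, adjusted p = 0.161). The share of loci on the arms was 77.2% (115 of 149) in replicate 1 and 62.5% (257 of 411) in replicate 2, an odds ratio of 2.03 (1.30 to 3.22, Fisher's exact test, two-sided, adjusted over 3 pairs of lists p = 0.00349). With single peaks (odds ratio 1.58, adjusted p = 0.0595) or without peaks at the lowest tag number (1.80, adjusted p = 0.111) that difference did not pass the exact test. Endogenous LIN-42 held 69.4% of its loci on the arms (127 of 183). Its odds ratio over replicate 2 was 1.36 (0.92 to 2.01), and that of replicate 1 over it was 1.49 (0.88 to 2.53). Both had an adjusted p of 0.136 (Fisher's exact tests). The lists share part of their loci, and 63 of the 149 of replicate 1 overlapped a replicate 2 peak. Fisher's test treats the loci of 2 lists as separate, so these p-values are approximate.

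**Figure D1:**
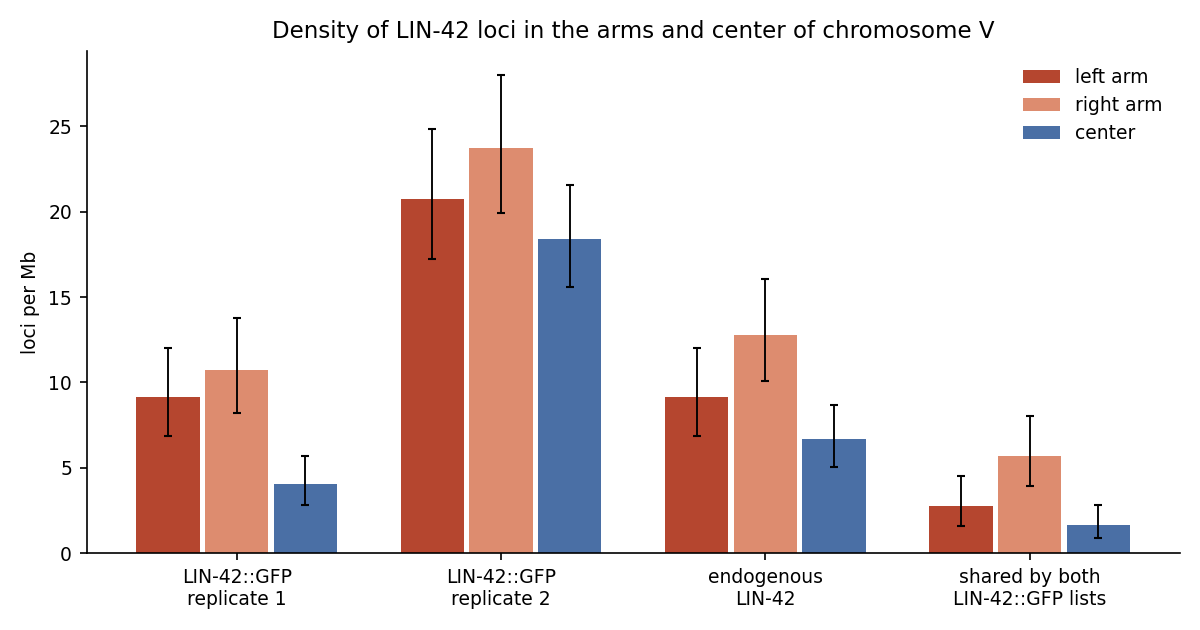
Loci per Mb (vertical axis, from 0) in the left arm, right arm and center of chromosome V for the 3 lists and for loci shared by both LIN-42::GFP lists; bars are densities and lines are exact 95% Poisson intervals, which cover counting error only. In replicate 1 the left and right arms stand at 9.17 and 10.7 loci per Mb and the center at 4.06. In the same order the values are 20.8, 23.7 and 18.4 in replicate 2. They are 9.17, 12.8 and 6.69 in endogenous LIN-42, and 2.77, 5.71 and 1.67 for shared loci.

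Peaks of LIN-42::GFP replicate 1 that overlapped a replicate 2 peak by 1 bp or more are called shared. There were 85 of them on chromosome V, in 63 loci. The shared loci had a density of 4.24 per Mb on the arms (3.14 to 5.61) and 1.67 per Mb in the center (0.91 to 2.81), a ratio of 2.54 (1.38 to 4.97) from 49 and 14 loci (exact test, adjusted p = 0.00595). Shared loci are a part of the replicate 1 loci, so this ratio is not separate from the 2.45 of all loci of that list. All replicate 2 loci, without the need for a replicate 1 peak, gave the ratio of 1.21 above, which did not pass. The density of shared loci was highest toward the right end. Of the 63 shared loci 33 were on the right arm, 16 on the left arm and 14 in the center. Per Mb these were 5.71 (3.93 to 8.02), 2.77 (1.58 to 4.50) and 1.67, so the left arm interval overlaps that of the center. In windows of 10% of the chromosome's length, those from 80% to 90% and from 90% to 100% held 16 and 11 shared loci, 7.65 and 6.91 per Mb. No window between 30% and 70% had more than 5, or over 2.39 per Mb.

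Loci per Mb were more on the right arm than on the left in each list, but none of the 3 ratios passed the test. The ratio of right to left was 1.17 (0.80 to 1.72) in LIN-42::GFP replicate 1, 1.14 (0.89 to 1.47) in replicate 2 and 1.4 (0.97 to 2.03) in endogenous LIN-42, with adjusted p-values of 0.456, 0.456 and 0.227 over 3 exact tests. The endogenous list reached 16.3 loci per Mb in the window from 80% to 90%, against 4.30 per Mb in the window from 40% to 50%. Replicate 2 had 29.6 per Mb from 80% to 90% and 18.2 per Mb from 40% to 50%.

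**Figure D2:**
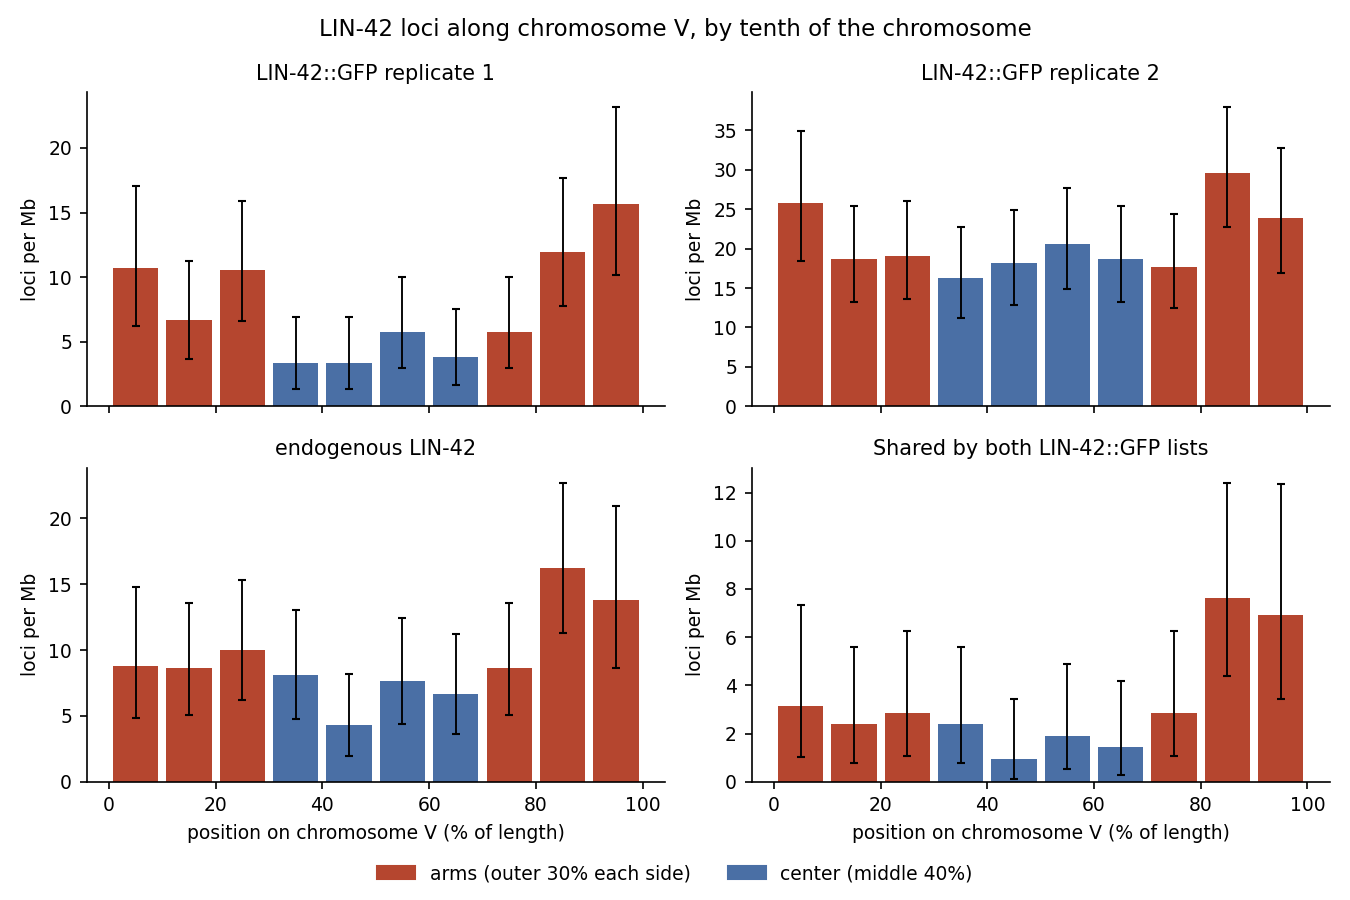
Loci per Mb (vertical axis, from 0, scaled to each panel) in windows of 10% of chromosome V (horizontal axis, percent of its length), for the 3 lists and the shared loci; lines are exact 95% Poisson intervals and the first and last windows are without the 500 kb at the ends. The window from 80% to 90% holds 25 loci in replicate 1, 62 in replicate 2, 34 in endogenous LIN-42 and 16 of the shared loci.

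Of the peaks with 16 or more tags, 23 of 26 were on the arms in LIN-42::GFP replicate 1, 30 of 32 in replicate 2 and 42 of 51 in endogenous LIN-42, where the arms make up 58.0% of the length examined. These are 88.5%, 93.8% and 82.4% of the strong peaks, beside 74.6%, 64.9% and 72.1% of all peaks of the 3 lists. The right arm alone held 14, 26 and 25 of the strong peaks. Outside runs of 4 or more closely spaced peaks, 23 of 24 strong peaks of replicate 1, 10 of 12 of replicate 2 and 38 of 47 of endogenous LIN-42 were on the arms, and 14, 9 and 25 on the right arm. Most strong replicate 2 peaks of the right arm were thus in runs. Those runs include the sites at the genes haf-7, nspa-10 and clec-9, described further on, so leaving out runs removes these sites from the replicate 2 counts too. The right arm also held 52.5%, 49.0% and 48.6% of all tags in chromosome V peaks, from 29.0% of the length. These are descriptions, with no test. Outside runs it held 36.9% of the replicate 2 tags.

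In each of the 3 single-sample lists, the medians of the regions lay within 3 tags of each other. The median peak of LIN-42::GFP replicate 1 held 5 tags on the left arm, 8 on the right arm and 7 in the center. In replicate 2 these medians were 4, 5 and 5, and in endogenous LIN-42 they were 7.5, 8 and 6. Peaks at the lowest tag number of their list made up 31.9% of arm peaks (43 of 135) and 23.9% of center peaks (11 of 46) in replicate 1, an odds ratio of 1.49 (0.66 to 3.56, Fisher's exact test, adjusted p = 0.390). In replicate 2 they were 43.5% on the arms and 49.7% in the center (odds ratio 0.78, 0.53 to 1.15, exact test, adjusted p = 0.26), and in endogenous LIN-42 32% on the arms and 47.4% in the center (0.52, 0.27 to 1.03, adjusted p = 0.0806). None of the 3 passed the threshold. Counting 4 and 5 tags together, 189 of 313 arm peaks and 131 of 169 center peaks of replicate 2 were this weak, an odds ratio of 0.44 (Fisher's exact test, adjusted p = 0.000953). That count takes each peak of a run as separate and was not repeated without runs. At 4 tags alone, leaving out runs of 4 or more peaks gave 133 of 265 and 84 of 160, an odds ratio of 0.91 (0.60 to 1.38, Fisher's exact test, adjusted p = 0.758).

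**Figure D3:**
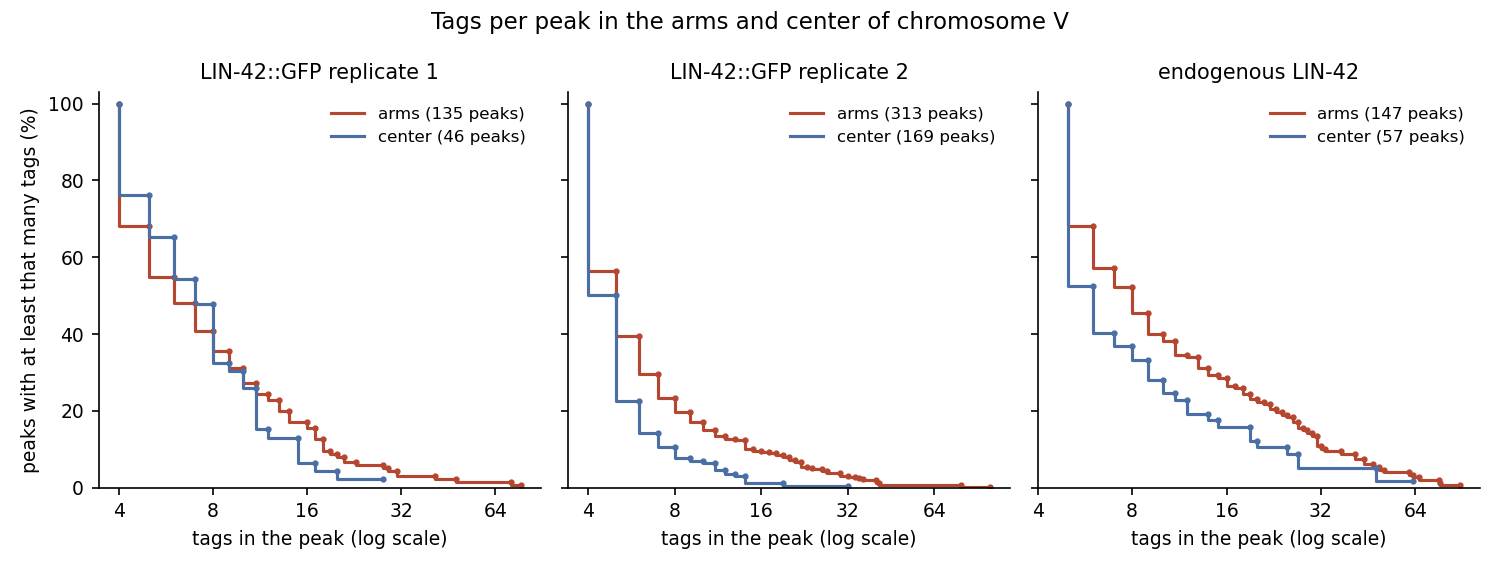
Percent of peaks (vertical axis) with at least the number of tags on the horizontal axis (log scale), for arm and center peaks of chromosome V in the 3 lists. In replicate 2 and endogenous LIN-42 the line for the arms lies above that for the center over most of the range; 30 of 313 arm peaks and 2 of 169 center peaks of replicate 2 reach 16 tags.

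Of the 54 peaks of LIN-42::GFP replicate 1 with 28 tags or more, 9 were on chromosome V (16.7%, against 19.1% of all its peaks). The same count was 8 of 53 in replicate 2, from 35 tags up (15.1%, against 18.7%), and 7 of 50 in endogenous LIN-42, from 61 tags up (14.0%, against 18.1%). Chromosome V thus held a slightly lower share of the strongest peaks than of all peaks in each list, a difference that was not tested. Of these 9, 8 and 7 peaks, 6, 6 and 5 were on the right arm.

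The next question was how far the 3 lists found the same loci, and whether that differed between the arms and the center. Among loci of all chromosomes, 39.3% of those of LIN-42::GFP replicate 1 overlapped a replicate 2 peak. On chromosome V the share was 42.6% on the arms (49 of 115, Wilson 95% interval 34.0% to 51.7%) and 41.2% in the center (14 of 34, 26.4% to 57.8%). The odds ratio of 1.06 (0.46 to 2.51) did not pass (Fisher's exact test, adjusted p = 1.00), and the interval includes differences in either direction. The left arm had 16 of 53 loci found (30.2%) and the right arm 33 of 62 (53.2%), a difference that was not tested.

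In the other direction, 13.9% of replicate 2 loci of all chromosomes overlapped a replicate 1 peak. On chromosome V it was 18.3% on the arms (47 of 257, 14.0% to 23.5%) and 9.09% in the center (14 of 154, 5.49% to 14.7%), an odds ratio of 2.24 (1.16 to 4.57, Fisher's exact test, adjusted p = 0.0263). Without runs of 4 or more peaks it was 40 of 249 and 13 of 153, an odds ratio of 2.06 that did not pass (exact test, adjusted p = 0.0612), nor did it with single peaks (1.72, adjusted p = 0.0806). The odds ratio was 3.17 among peaks above the lowest tag number (39 of 132 and 9 of 77, exact test, adjusted p = 0.00962). It was 4.52 among peaks of MACS p 1e-10 or less (38 of 216 and 6 of 133, exact test, adjusted p = 0.0012). Both passed. The replicate 2 loci found in replicate 1 are the shared loci seen from replicate 2. This comparison is therefore not separate from the density ratios of 2.54 and 1.21 above.

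Endogenous LIN-42 loci were found in either LIN-42::GFP list for 41.2% of loci of all chromosomes. On the arms of chromosome V it was 46.5% (59 of 127, 38.0% to 55.1%) and in the center 26.8% (15 of 56, 17.0% to 39.6%), an odds ratio of 2.37 (1.14 to 5.08, Fisher's exact test, adjusted p = 0.0263). Among peaks above the lowest tag number the shares were 52 of 81 on the arms and 14 of 29 in the center, an odds ratio of 1.92 that did not pass (exact test, adjusted p = 0.254). With the chromosome divided into 3 equal parts in place of 30% and 40% the odds ratio was 1.86 (exact test, adjusted p = 0.155).

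Of the 4 overlap comparisons, the odds ratio was largest for shared loci. Over all chromosomes 85.4% of the loci shared by both LIN-42::GFP lists had an endogenous LIN-42 peak as well. On the arms of chromosome V this was so for 45 of 49 (91.8%, 80.8% to 96.8%) and in the center for 8 of 14 (57.1%, 32.6% to 78.6%), an odds ratio of 8.44 (1.53 to 48.5, Fisher's exact test, adjusted p = 0.0151). The call rests on 4 and 6 loci without an endogenous peak and was lost among peaks above the lowest tag number, with 39 of 41 on the arms and 7 of 9 in the center (exact test, adjusted p = 0.198). Among all replicate 1 loci, whether or not in replicate 2, 54 of 115 on the arms and 13 of 34 in the center had an endogenous peak (odds ratio 1.43, exact test, adjusted p = 0.478).

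A peak's tags went with its chance of being found again. Of arm peaks of LIN-42::GFP replicate 1, 6 of 61 with 4 or 5 tags, 18 of 32 with 6 to 9, 15 of 19 with 10 to 15 and 22 of 23 with 16 or more overlapped a replicate 2 peak. In the center the counts were 5 of 16, 7 of 16, 9 of 11 and 3 of 3. Of the 14 center peaks with 10 or more tags, 7 belong to the run of peaks at the non-coding RNA gene Y97E10B.12, described further on. For replicate 2, 26 of 30 arm peaks and 1 of 2 center peaks with 16 or more tags were found in replicate 1, and 6 of 189 arm peaks and 7 of 131 center peaks with 4 or 5 tags. Of the 30 arm peaks, 10 lay outside runs of 4 or more peaks. At the same number of tags, the Wilson intervals of arms and center overlap in every class of these 2 lists. For shared peaks found with endogenous LIN-42 they do not overlap in 2 of the 4 classes. With 16 or more replicate 1 tags, 22 of 22 arm peaks (85.1% to 100%) and 1 of 3 center peaks (6.15% to 79.2%) had an endogenous peak, and with 4 or 5 tags 5 of 6 (43.6% to 97.0%) and 0 of 5 (0% to 43.4%). With 6 to 9 tags the counts were 12 of 18 and 5 of 7, and with 10 to 15 tags 11 of 15 and 4 of 9. The 2 center peaks of 16 or more tags without an endogenous peak had 17 and 28 tags. They are neighbors in the run at Y97E10B.12, so they are not separate loci, and an endogenous peak of 63 tags lies elsewhere in that run. The part of tag number in the differences of the previous paragraphs was not tested.

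**Figure D4:**
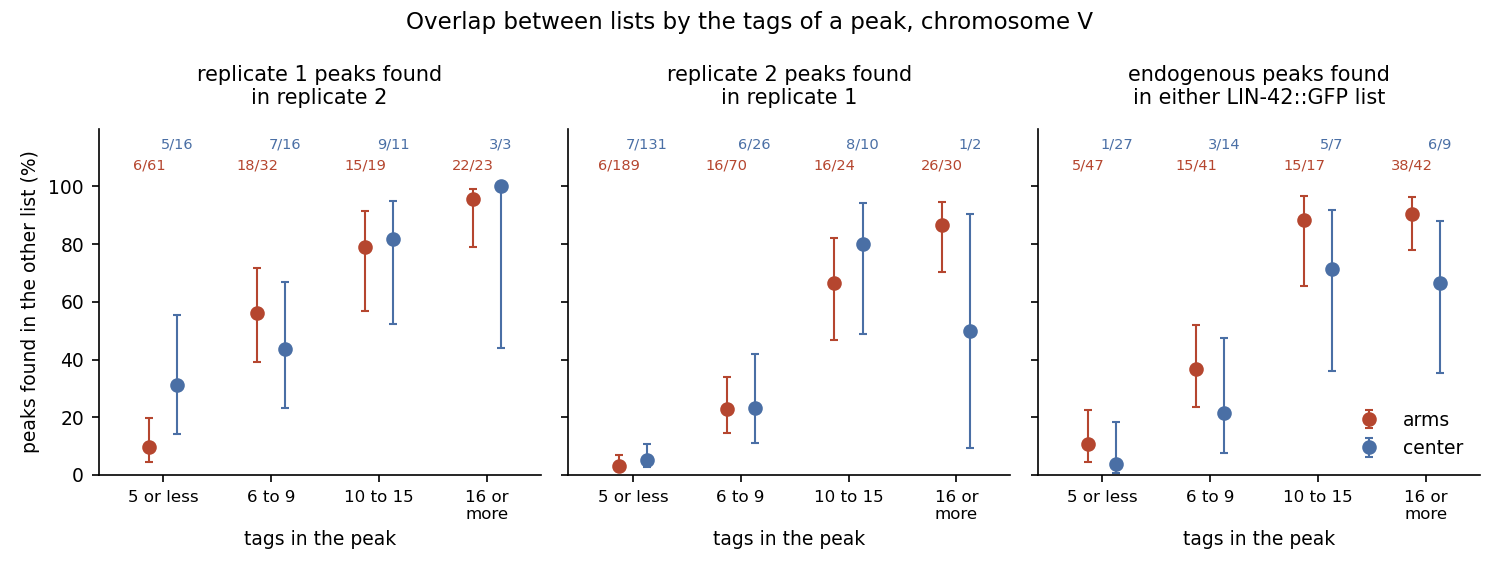
Percent of chromosome V peaks found in the other list (vertical axis) by the tags of the peak (horizontal axis), on the arms and in the center, with Wilson 95% intervals and the counts above; the first class is 4 or 5 tags for LIN-42::GFP and 5 tags for the endogenous list. In the endogenous list 38 of 42 arm peaks and 6 of 9 center peaks with 16 or more tags were found in either LIN-42::GFP list.

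No difference in these shares between chromosome V and the other chromosomes, taken to their ends, passed the test. Replicate 1 loci found in replicate 2 were 42.3% on chromosome V and 38.5% elsewhere (63 of 149 and 256 of 665, odds ratio 1.17, 0.80 to 1.70). Shared loci with an endogenous peak were 84.1% on chromosome V and 85.5% elsewhere (53 of 63 and 219 of 256, odds ratio 0.90, 0.40 to 2.15). For replicate 2 loci found in replicate 1 the odds ratio was 1.10 (0.80 to 1.5), and for endogenous loci found in either LIN-42::GFP list 0.97 (0.69 to 1.36). All 4 had an adjusted p of 0.868 (Fisher's exact tests). A missed threshold does not show equal shares, and the intervals bound the difference.

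When overlapping peaks of the 3 lists were merged, chromosome V had 684 distinct regions, and 577 of them were in 1 list only. Of these single-list regions 381 came from LIN-42::GFP replicate 2, 116 from endogenous LIN-42 and 80 from replicate 1, with a median of 4, 5 and 4 tags. Only 56 regions were in all 3 lists, 16 on the left arm, 32 on the right arm and 8 in the center, which is 10.6% of arm regions and 3.46% of center regions. Of the remaining regions, 23 were in both LIN-42::GFP lists without an endogenous peak, 12 of them in the center. Merged regions are not loci. Several of these center regions are neighboring pieces of the run at Y97E10B.12, and most of those on the right arm lie in the stretch of the 5S array.

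The peak summits of shared sites lay close together. Outside runs of 4 or more shared peaks, the summits of replicates 1 and 2 were a median of 8 bp apart on the arms (54 peaks) and 8 bp in the center (13 peaks). Those of replicate 1 and endogenous LIN-42 were 6.5 bp apart on the arms (50 peaks) and 8 bp in the center (7 peaks). Of the 67 shared peaks outside runs, 37 had their LIN-42::GFP summits within 10 bp. Tag numbers of these 67 peaks went together between the replicates (Spearman's rho 0.73 over peaks, given without a test, since the peaks share 2 libraries). The rho was 0.76 over the 54 arm peaks and 0.31 over the 13 center peaks, whose median tags were 8 and 5 in replicates 1 and 2. Each of the LIN-42::GFP replicates had the higher number about equally often, replicate 1 at 31 peaks, replicate 2 at 33, with 3 equal.

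The strongest sites present in all 3 lists were on the right arm. The site in the promoter class of haf-7, which encodes a half-molecule ABC transporter, had nearly the same number of tags in each list, 77 and 79 in the LIN-42::GFP replicates and 77 with the LIN-42 antibody. Nearby, at nspa-10, a member of a nematode-specific peptide family, the locus (14754548 to 14755741) had 72, 100 and 89 tags in its strongest peak. In replicate 2 both sites belonged to runs of 4 peaks. Tags are not scaled to library depth, and the endogenous library kept 122089 tags against 38236 and 43991 in the LIN-42::GFP replicates. In the RefSeq gene table, haf-7 and nspa-10 are separated by 2 pseudogenes only. The nspa family has several members on chromosome V, so the assignment of reads to this copy is uncertain, although only uniquely aligned reads entered the peak calling.

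The third site of the right arm, upstream of the C-type lectin gene clec-9 (16707277 to 16709146), had 48 tags in replicate 1, 20 in replicate 2 and 66 in endogenous LIN-42. Its replicate 1 peak was broad, at 1410 bp, with a low fold enrichment of 12 at the summit (the tags at the summit over what MACS expected there). F47H4.2 (17363600 to 17363735) had 31, 27 and 30 tags in a peak of 136 bp, and Y43F8B.3 (19499825 to 19499965) had 29, 35 and 26. These last 2 sites were narrow, and their summits in the 3 lists lay within 6 bp of that of replicate 1.

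On the left arm the sites with most replicate 1 tags were weaker. F35F10.10 (3307453 to 3307594) led with 41 tags in replicate 1, 40 in replicate 2 and 37 in endogenous LIN-42, and a summit fold of 745 in replicate 1. T10B5.7 (1845481 to 1845621) had 28, 14 and 31 tags. The fifth place was tied between F32D1.11 (17, 10 and 41 tags) and an intron of mtm-9 (17, 10 and 19), a gene of the myotubularin phosphatase family. The other sites of this rank were broad. Y49G5A.1 (a peak of 641 bp) had 20, 41 and 76 tags, and Y50D4B.2 (603 bp) had 18, 7 and 31. Their replicate 1 summit folds were 11.4 and 13.1. In both, the endogenous list had the most tags, as its library also kept the most tags in all.

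In the center 8 loci were in all 3 lists. Outside the run at Y97E10B.12 the strongest was in the promoter class of the chemoreceptor gene srg-30 (6718865 to 6718997), with 20 tags in replicate 1, 14 in replicate 2 and 19 in endogenous LIN-42. C54F6.16 (7550473 to 7550757) had 15, 19 and 19 tags, T28H10.2 (12509977 to 12510122) had 11, 7 and 27, and Y97E10AL.1 (7989195 to 7989532) had 10, 5 and 14. None of these came near the tags of haf-7 or nspa-10.

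**Figure D5:**
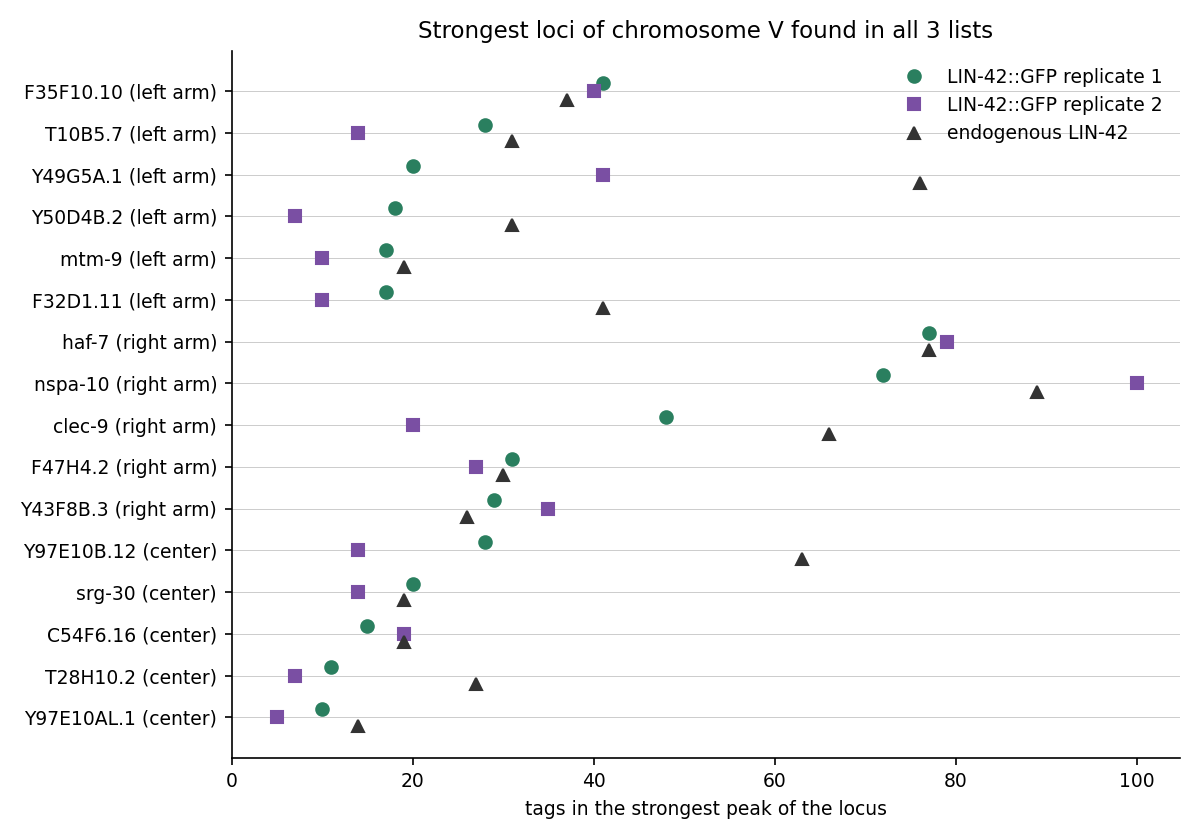
Tags in the strongest peak (horizontal axis, from 0) of the loci in all 3 lists with most LIN-42::GFP replicate 1 tags, 6 on the left arm with a tie, 5 on the right arm and 5 in the center; each marker is 1 library. The values of haf-7 lie between 77 and 79 and those of nspa-10 between 72 and 100, while the highest center value is the 63 endogenous tags at Y97E10B.12.

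For each shared peak the closest gene and its class were taken from the annotation published with the study. Of the 55 coding-class genes closest to shared peaks on chromosome V, 7 were chemoreceptor genes (12.7%), beside 749 of 4995 protein-coding genes of the chromosome in RefSeq (15%). All 8 of their peaks had an endogenous LIN-42 peak, as did 60 of all 85 shared peaks. Outside runs of 4 or more shared peaks, where these 8 lie, 57 of 67 shared peaks had one. No gene of the nuclear hormone receptor or F-box (fbxa, fbxb and fbxc) families was among the 55, where these make up 3.34% (167) and 1.74% (87) of the chromosome's protein-coding genes. C-type lectin genes were 2 of the 55 (3.64%), beside 1.70% of the chromosome's genes (85). With so few genes, these shares are descriptions and none was tested. The classes are those of the study's annotation and differ in part from RefSeq. RefSeq lists F35F10.10, C54F6.16 and ZK218.8, which are among the 55, as pseudogenes. It lists bus-19, whose peak is in a non-coding class, as protein-coding.

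Of the 7 chemoreceptor genes 4 were on the right arm, which held 52.4% of all shared loci. There, a peak in an intron of srsx-38 had 13 tags in replicate 1, 15 in replicate 2 and 19 in endogenous LIN-42, srw-83 had 12, 22 and 11, and an intron of sri-10 had 10, 6 and 8. At srab-12 there were 2 shared peaks (17783772 to 17783900 and 17785027 to 17785148), with 10, 13 and 9 tags and with 8, 6 and 13. The left arm had srab-10 (9, 8 and 9 tags) and an exon of srw-138 (5, 4 and 9), and the center srg-30 alone. Summits of replicates 1 and 2 were within 4 bp of each other at 6 of these 8 peaks.

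There were 5 transport genes, 4 of them on the arms, which held 77.8% of all shared loci. After haf-7, the ABC transporter gene mrp-7 had a peak in an intron (19680119 to 19680259) with 18 tags in replicate 1, 15 in replicate 2 and 20 in endogenous LIN-42. M162.5 had 7, 10 and 10 tags, and ncx-9, which encodes a sodium-calcium exchanger, 6, 10 and 14. In the center, aat-2, an amino acid transporter gene (9244209 to 9244389), had no endogenous peak and 7 and 4 tags in replicates 1 and 2 of LIN-42::GFP.

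Among signaling and traffic genes, dkf-2, which encodes a protein kinase D, had 21 tags in replicate 1, 22 in replicate 2 and 28 in endogenous LIN-42. The promoter-class peak of rin-1 (14801101 to 14801229), a gene of the RIN family of Rab5 regulators, had 18, 21 and 25 tags. An intron of the sorting nexin gene snx-6 had 14, 4 and 8, and an exon of pph-5, a serine/threonine phosphatase gene, 9, 6 and 5. The only gene in the transcription factor group was dmd-3, a DM-domain factor that drives the remodeling of the male tail tip at the end of larval life and that is known to act under heterochronic control. Its peak was in an intron (19650733 to 19650902) and had 9 tags in replicate 1, 7 in replicate 2 and 9 in endogenous LIN-42. The median of the 85 shared peaks was 11 replicate 1 tags.

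By class, 26 of the 85 shared peaks were in promoters of coding genes, 28 were downstream of coding genes, 10 were in introns and 3 in exons of coding genes, and 18 were at non-coding genes. On the arms 5 of 61 were at non-coding genes (8.20%) and in the center 13 of 24 (54.2%), but 11 of these 13 belong to a single run. All 10 intron peaks were on the arms and had an endogenous peak. Outside runs of 4 or more shared peaks, where these 10 lie, 54 of all 67 shared peaks were on the arms and 57 had an endogenous peak. Of the 28 downstream peaks 16 had one, and 7 of the other 12 were in the run at ZK218.8.

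Shared peaks formed 2 runs of 4 or more. The center run lay at the non-coding RNA gene Y97E10B.12 (7917433 to 7925009), which RefSeq places between srx-11, a pseudogene of a chemoreceptor family, and the chemoreceptor gene srsx-7. LIN-42::GFP replicate 1 had 12 peaks there with 4 to 28 tags, and replicate 2 had 9 with 6 to 14 tags. Endogenous LIN-42 had a single peak of 1125 bp and 63 tags, at the end of the run. Of the 11 shared peaks, 8 had no endogenous peak. LIN-42::GFP peaks of the run had folds of 13.9 to 42.1 in replicate 1, where the median over all its center peaks was 79.6.

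The right arm run lay at ZK218.8 and continued over a longer stretch in replicate 2 (17115455 to 17132049, 16595 bp). RefSeq lists ZK218.8 as a pseudogene, and within 30 genes of it there are 14 rrn-4 genes for 5S ribosomal RNA and 12 sls-1 genes for the SL1 RNA, the array named above. Replicate 2 had 19 peaks in this stretch with 443 tags, 12.9% of its tags in chromosome V peaks. Replicate 1 had 11 peaks with 139 tags (8.0%), and endogenous LIN-42 had 4 peaks with 219 tags (7.78%). The shared peaks of the stretch form 3 loci. All 7 peaks of the middle one, with 8 to 14 tags in replicate 1 and 11 to 41 in replicate 2, had no endogenous peak, and neither had the peak at the non-coding gene ZK218.23 (9 and 14 tags), whereas those at the 5S gene ZK218.12 (rrn-4.1; 19, 40 and 63 tags) and at 2 sites of ZK218.8 (23, 36 and 61, and 17, 30 and 51) did. The units of the array are near-identical copies, so which unit a peak belongs to is uncertain.

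Another run was at D2063.4 (irld-1 in RefSeq, a gene of the insulin/EGF-receptor L domain family) on the left arm. Replicate 1 had 5 peaks there with 4 to 8 tags, replicate 2 had 3 with 4 tags each, and endogenous LIN-42 had 4 with 16 to 27 tags. It was the only run of the endogenous list on the chromosome. Replicate 2 alone had runs of 4 peaks at Y58A7A.2 and Y49G5A.1 on the left arm and at nspa-10, haf-7 and clec-9 on the right arm. Its runs of 5 peaks (17389811 to 17394431) and of 4 peaks (17982154 to 17985086) on the right arm held no peak of the other lists. Peaks in runs were broader than others, with a median width of 383 bp against 118 bp in replicate 2 and 368.5 bp against 143 bp in replicate 1, and they had lower summit folds (26.3 against 82.7, and 22.9 against 97.1).

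Outside the 2 runs of shared peaks, 10 shared peaks lacked an endogenous LIN-42 peak. They had a median of 5.5 tags in replicate 1 and 4 in replicate 2, against 13 and 14 at the 57 shared peaks outside these runs that had one. In the center these were the promoter-class peaks of egl-47 (5 tags in each LIN-42::GFP list) and ZC487.3 (5 and 4), aat-2, the non-coding classes at F28C1.10 (5 and 7) and bus-19 (4 and 5), and the C-type lectin gene clec-225 (13133097 to 13133370), with 12 and 4 tags. On the arms they were F48G7.12 on the left (4 and 4), and Y43F8C.7 (6 and 4), fre-1 (6 and 4) and ZK218.23, inside the longer replicate 2 run, on the right.

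Some strong peaks were in 1 or 2 lists only. The strongest region found by endogenous LIN-42 alone was a pair of neighbors on the right arm (17309452 to 17310475 and 17310547 to 17311403) with 33 and 32 tags. A replicate 1 peak of 5 tags (17309245 to 17309402) lay beside this pair, within the 2000 bp of a locus, without overlapping it. The strongest region of LIN-42::GFP replicate 1 alone had 17 tags (left arm, 1199284 to 1199414). In replicate 2, 2 regions had 32 tags, one in the center (11273749 to 11274652) and one inside the 5S array. In the center, 2 regions (10605766 to 10606833 and 10610059 to 10611133) had 48 endogenous tags each. They had 8 and 6 tags in replicate 1. No replicate 2 peak overlapped them, though one of 4 tags (10609034 to 10609284) lay between them.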

How the data were processed

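ChIP-seq of L4 larvae gave 3 libraries (2 with anti-GFP, 1 with anti-LIN-42). The authors aligned reads to ce10 with Bowtie2, kept uniquely aligned reads and called peaks per library with MACS 1.4.2 at a p-value cutoff of 1e-05. The deposited lists give, for each peak, tag counts, a score (MACS's scaled minus log10 p), the fold enrichment at the summit (a ratio) and, in the LIN-42::GFP lists, a false discovery rate in percent. The study's methods state that all peaks were called against input, but the file headers name a control for the LIN-42::GFP lists only (Input2 for replicate 1, Input3 for replicate 2, where the labels number the inputs 1 and 2) and give none for the endogenous list. Which input each list was called against is therefore unsettled, and folds are not compared between lists.

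Members and gene lists were chosen with earlier results of these data known. Peaks within 2000 bp were joined into loci, and an overlap needed 1 bp. Densities were compared by exact conditional binomial tests with exact 95% intervals and shares by Fisher's exact tests with Wilson intervals, two-sided, Benjamini-Hochberg adjusted over 11 tests of arms against center, 4 of chromosome V against other chromosomes, 3 of right against left arm and 3 pairs of lists, at a threshold of 0.05 (SciPy 1.17.1, pandas 2.3.3, NumPy 2.4.6, tested on simulated data). Genes and classes come from the study's annotation of shared peaks, by largest overlap, and 61 of 63 names matched RefSeq (WBcel235, names and order only). Genes named are those of the groups described, the 5 loci with most replicate 1 tags in all 3 lists per region, runs of 4 or more peaks, shared peaks without an endogenous peak and the strongest region of each list alone. No genome of the build was used, so no sequence is shown. Depths and alternatives are given in the text and the closing section.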

Additional observations from a re-analysis of the deposited data

Results flagged for a closer look

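The share of loci on the arms of chromosome V differed between the replicates of one antibody, LIN-42::GFP replicate 1 over replicate 2, by an odds ratio of 2.03 (1.30 to 3.22), with 115 of 149 and 257 of 411 loci (Fisher's exact test, adjusted p = 0.00349). The test treats the loci of the 2 lists as separate, although 63 of the 149 overlapped a replicate 2 peak. Of the replicate 1 peaks on the chromosome 29.8%, and of the replicate 2 peaks 45.6%, rested on 4 tags. Among peaks above the lowest tag number of each list the odds ratio was 1.80 (Fisher's exact test, adjusted p = 0.111), and the part of list length in the difference was not tested.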

How the results depend on the processing

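Of 102 alternative values 77 kept their direction and their side of the threshold, among them every alternative of the arm excess of LIN-42::GFP replicate 1 (ratios 2.13 to 2.96) and of endogenous LIN-42 (1.59 to 2.90). Counting single peaks brought the arm excess of replicate 2 past the threshold (1.34), took the odds ratio of replicate 2 loci found in replicate 1 below it (1.72) and likewise the difference in arm share between replicates 1 and 2 (1.58). It turned the direction for replicate 1 found in replicate 2 (0.76) and for endogenous loci found in either LIN-42::GFP list on chromosome V against elsewhere (1.07). Replicate 2 loci found in replicate 1 stayed past it among peaks above the lowest tag number (3.17) and of MACS p 1e-10 or less (4.52). Leaving out runs of 4 or more peaks gave 2.06 for them, no longer past the threshold, and 0.84 for replicate 1 found in replicate 2, reversed. For the arm excess of replicate 2 loci, leaving out runs gave 1.18, not past the threshold. Peaks above the lowest tag number took 3 arm results below the threshold, at 5.57 for shared loci with an endogenous peak, 1.92 for endogenous loci in either LIN-42::GFP list and 1.80 for the difference between replicates. They also reversed 3 of chromosome V against elsewhere, at 0.92, 1.57 and 1.24 for replicate 1 in replicate 2, shared loci with an endogenous peak and endogenous loci. Peaks of MACS p 1e-10 or less gave 3.30 and 2.88 for these first 2 arm results, not past the threshold, and reversed the endogenous share against elsewhere (1.37). The same limit, chosen after seeing the data for the difference between lists, brought endogenous LIN-42 over replicate 2 past the threshold (2.46). The chromosome in 3 equal parts gave 1.86 for endogenous loci in either list. Summits within 200 bp reversed 2 comparisons with other chromosomes, at 1.19 and 1.03. The lowest 2 tag numbers in place of 1 gave 0.44 in replicate 2, past the threshold, with the peaks of runs included.

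Leaving out 1 LIN-42::GFP replicate in turn gave 1.21 to 2.45 for the arm excess of shared loci, 1.43 to 3.39 for shared loci with an endogenous peak on arms against center, and, against elsewhere, 0.97 to 1.07 for shared loci and 0.99 to 1.08 for endogenous loci. None of the values that reversed had passed the threshold. No paired analysis was possible because the replicate numbers name separate immunoprecipitations of one group and no test compares groups that share them. Depth limits the weak peaks most, since 4 or 5 tags decide a call, and a site missing from a list cannot be told apart from one too shallow to be called.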
